A study of Sus scrofa with 6 samples.

Results

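The miR-424, miR-503, miR-542 and miR-450 genes form a miRNA cluster on the X chromosome, and its mature products were followed here in left atrial (LA) tissue of paced and sham pigs. The probes were chosen by name alone, as every pig probe of miR-424, miR-503, miR-542, miR-450a, miR-450b and miR-450c, with or without an arm suffix. This gave 10 of the 322 pig miRNA probes on the array, namely both arms of miR-424, miR-542, miR-450b and miR-450c and a single probe each for miR-503 and miR-450a.
Total RNA of the LA was hybridized to Cy3-labelled 1-colour arrays, with 1 array per animal and 9 repeat spots per probe. The 3 animals of the PAF (paroxysmal atrial fibrillation) group, called paced below, received bursts of rapid right atrial pacing, and the tissue was harvested on the next day. The 3 animals of the sham-control group had no burst pacing. The beta blocker esmolol was given before pacing, and whether sham animals received it is not stated in the sources used here. The animals are Large White pigs 3 months of age by the methods and neonatal piglets by the sample labels, and short self-terminating episodes in young animals without heart disease limit the paced group as a model of the disease in patients.

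The members of such a cluster are cut from a shared primary transcript, and each hairpin gives a 5p and a 3p arm that are stabilized separately. The mature miRNA represses mRNAs that pair with its seed, bases 2 to 8. miR-424 (called miR-322 in rodents) and miR-503 are known to rise when myoblasts leave the cell cycle and differentiate, and cell cycle regulators are among their targets. In the Sscrofa11.1 gene table, 4 of the 6 genes were found by name. MIR450B, MIR450A, MIR450C and MIR542 follow one another on chromosome X between the protein-coding genes HPRT1 and PLAC1, with no other listed gene among them.

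The target sequences of the probes, as deposited with the arrays, are shown 5′ to 3′ with the seed in capitals. The first set shows the seed that miR-424-5p shares with the miR-15/16 family and the related seed of miR-503.
miR-424-5p: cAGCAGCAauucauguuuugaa
miR-15a: uAGCAGCAcauaaugguuugu
miR-497: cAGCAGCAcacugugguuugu
miR-503: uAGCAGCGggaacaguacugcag
Bases 2 to 8 of miR-424-5p were shared by 6 probes of the array, the others being miR-15a, miR-15b, miR-16, miR-195 and miR-497. The seed of miR-503 differs in its last base, and 7 probes share bases 2 to 7 with it, itself included. The second set shows how close the miR-450 members are to each other.
miR-450a: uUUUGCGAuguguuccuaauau
miR-450c-5p: uUUUGCGAuguguuccuaauac
miR-450b-5p: uUUUGCAAuauguuccugaaua
Counted from the 5′ end, miR-450a and miR-450c-5p differ by 1 base of 22, U22C, and share their seed, which no other probe has. miR-450b-5p differs from miR-450a at 6 positions, among them G7A within the seed. The 3p arms of miR-450b and miR-450c share a run of 17 bases that starts at base 1 of the former and at base 2 of the latter, so that their seeds are shifted by 1 base. The arms of miR-542 have unrelated seeds, and they are shown because the paced and sham groups separated for the 5p arm.
miR-542-5p: uCGGGGAUcaucaugucacga
miR-542-3p: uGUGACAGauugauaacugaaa

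Before any comparison, the signal of each probe was set against the 786 empty spots of the same array. A probe counted as well above background where its repeat spots had a median over 3 SD (of the empty spots) higher than the median empty spot. The empty-spot median was 64.7 to 214.1 scanner units on the sham arrays and 242.5 to 399 on the paced arrays, highest on paced replicate 1. That array also had the fewest probes well above background, 104, where the richest array had 175.
None of the 10 members was well above background on all 6 arrays, whereas 104 of the 322 probes were. miR-424-5p and miR-450c-5p were so on 5 arrays each, all but paced replicate 1. miR-542-3p was so in 2 sham animals and 1 paced animal, miR-542-5p in 2 sham animals and no paced animal, and miR-424-3p in 1 animal of each group. The remaining 5 members, miR-503, miR-450a, miR-450b-5p, miR-450b-3p and miR-450c-3p, did not reach this level on any array. Measured against the 15 nearest empty spots, miR-424-5p reached it on all 6 arrays and miR-450b-5p and miR-542-5p each on paced replicate 2, which brought the members with signal on at least 1 array from 5 to 6.
miR-450a and miR-450c-5p, which differ in their final base only, thus fell on opposite sides of the background level. On paced replicate 2 the median of miR-450c-5p lay 8.42 SD above the empty spots and that of miR-450a 1.89 SD. On sham replicate 2 these values were 18.2 and 0.12 SD. How far each probe also binds the other miRNA is not given in the sources used here.

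**Figure D1:**
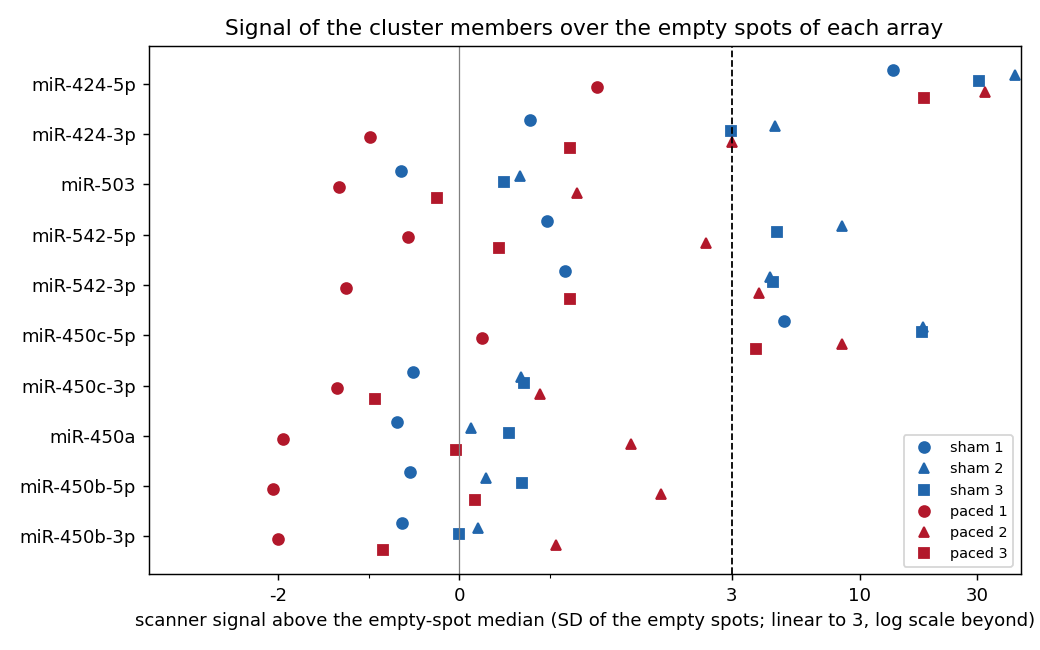
Median scanner signal of the repeat spots of each cluster member above the empty-spot median of its array, in SD of the empty spots (horizontal axis, linear up to 3 and logarithmic beyond), for 3 sham (blue) and 3 paced (red) arrays. The dashed line marks 3 SD. miR-424-5p and miR-450c-5p lie to the right of it on every array but paced replicate 1, and 5 members lie to the left of it on all arrays.

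Paced and sham animals were compared to ask whether brief episodes of AF changed the level of the cluster in the LA. Scanner values were background-corrected, quantile-normalized and transformed to log2, and limma was fitted over all 322 probes with Benjamini-Hochberg adjustment of the p values. Of the 10 members, 1 passed the unadjusted threshold of the methods (0.05), miR-542-5p, which was lower in paced animals. Among all probes this share was 10.6% in either direction, 7.14% for lower and 3.42% for higher values, so that 1 of 10 is near the background. After adjustment limma called 0 members and 0 of the 322 probes (0%), which became 9 probes without paced replicate 1 and 1 probe without paced replicate 2, with 0 members in both, and the methods' t-test gave the same counts of 1 and 0 members. The median difference of the 10 members was -0.06 on the log2 scale, beside 0.00 over all probes, with 6 members lower and 4 higher in paced animals. This split turned with the scaling. With arrays scaled on their detected probes, the median of all probes moved to 0.44. Then 6 of the 10 members, all higher, passed the adjusted threshold, beside 171 of the 322 probes. These members were miR-503, miR-450a, miR-450b-5p, miR-450b-3p and miR-450c-3p, on no array well above background, and the dim miR-424-3p. The SE under this scaling was 0.19 for every member, and the empty spots were brighter on the paced arrays. In bulk tissue, fewer cells of a type and less RNA per cell cannot be told apart.

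**Figure D2:**
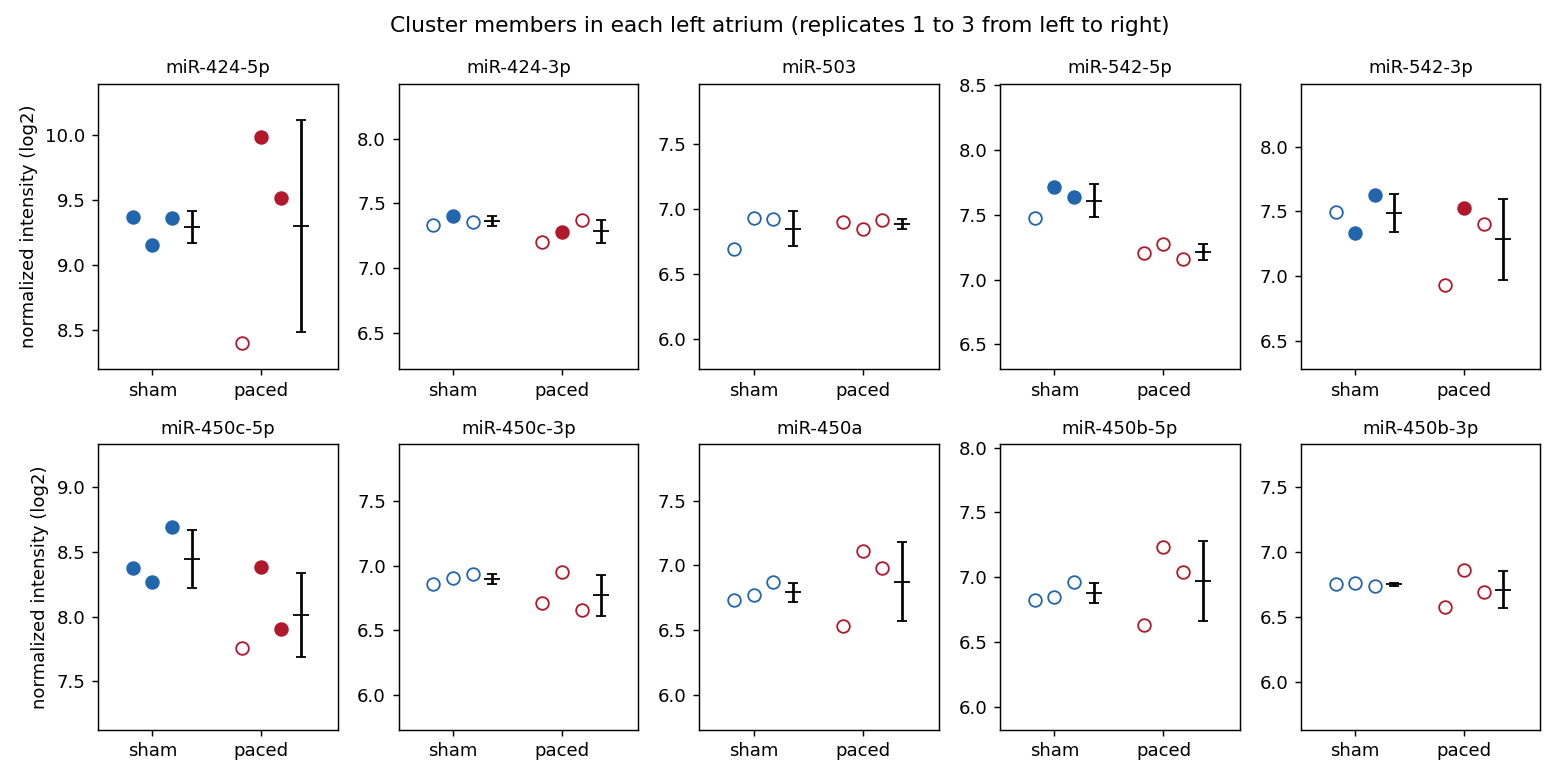
Normalized intensity (log2, vertical axis, the same span of 2.2 units in each panel) of the 10 cluster members in the 3 sham (blue) and 3 paced (red) animals. Filled points are well above background, open points are not, and the black marks give the mean and SD of each group. The groups separate for miR-542-5p only, and the paced animals are spread most widely for miR-424-5p.

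miR-424-5p is the arm that carries the miR-15/16 seed. Its median scanner signal was 1040.25, 423 and 613 units in sham replicates 1, 2 and 3 and 475, 1245 and 883 units in paced replicates 1, 2 and 3. All 9 repeat spots exceeded the background level on 5 arrays, and 2 of 9 did on paced replicate 1. The normalized log2 values were 9.37, 9.16 and 9.36 in sham and 8.40, 9.99 and 9.52 in paced animals. The sham animals lay close together, while the paced group held both the lowest and the highest of the 6 values.
The sham mean was 9.29 ± 0.12 and the paced mean 9.30 ± 0.82 (SD, n = 3), which differed by 0.01 with an SE of 0.37 (adjusted p = 0.997 in limma). The 95% interval ran from -0.88 to 0.90. The SD in paced animals ranked 4 among the 322 probes, from the largest, where the median probe had an SD of 0.12. Without paced replicate 1 the difference was 0.46 (SE 0.15, adjusted p = 0.119), and without paced replicate 2 it was -0.33 (SE 0.31, adjusted p = 0.724). The authors' processed intensities of miR-424-5p were 533, 456 and 545 in sham and 226, 930.0 and 647 in paced animals, with the same animals at both ends.

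The other arm, miR-424-3p, was dim. Its log2 values were 7.33, 7.40 and 7.35 in sham and 7.20, 7.28 and 7.37 in paced animals, with overlap between the groups. Paced minus sham gave -0.08 with an SE of 0.07 (adjusted p = 0.737 in limma).
miR-503, the neighbour of miR-424 with a closely related seed, was on no array well above background. Its log2 values of 6.69, 6.93 and 6.92 in sham and 6.90, 6.84 and 6.91 in paced animals overlapped, and no fold is given for it. At this level its spread between animals cannot be set beside that of miR-424-5p.

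miR-542-5p was the member in which the groups separated. Its median scanner signal was 273, 135 and 191 units in sham and 370.2, 326 and 276 units in paced animals, where the empty spots were brighter too. Above the empty-spot median this left 58.9, 70.6 and 73.8 units in sham and -28.7, 84.0 and 14.98 units in paced animals, and in these unnormalized values the groups overlapped. Of its 9 repeat spots, 0, 9 and 9 exceeded the background level in sham and 0, 3 and 0 in paced replicates 1, 2 and 3.
The normalized log2 values were 7.47, 7.72 and 7.64 in sham and 7.21, 7.28 and 7.15 in paced animals. All 3 paced values were lower than the lowest sham value, which held for 10.2% of all probes. From means of 7.61 ± 0.12 (sham) and 7.21 ± 0.06 (paced, SD, n = 3), limma gave -0.40 with an SE of 0.08, a 95% interval from -0.60 to -0.19 and an adjusted p of 0.134. Since no paced array was well above background against all empty spots, the paced level is only bounded, and the bound of 0.827 gives no fold. The difference stayed negative with each animal left out, from -0.47 to -0.34, but it was 0.15 with arrays scaled on their detected probes and -0.01 without normalization, where the median of all probes moved to 0.44 and 0.27. The difference of miR-542-5p lay below that median under both, but 44.4% of the probes behind the median were on no array well above background. It is thus no separate support for a lower level in paced animals. The authors' processed intensities were 63.5, 100.2 and 91.2 in sham and 46.5, 54.1 and 37.2 in paced animals, also without overlap.
In the same normalized values, the smooth muscle miRNAs (miR-143 and miR-145, 4 probes) had a summed linear intensity of 19262 to 23007 in sham and 17153 to 19084 in paced animals, and 1 of the 4 reached the unadjusted threshold with a lower value. miR-143-5p was on no array well above background. The erythroid miRNAs (miR-451, miR-144 and miR-486) summed to 12198 to 17089 in sham and 8241 to 12293 in paced animals, which overlapped. Of these 3, 1 was past the unadjusted threshold with a lower value, miR-486, and miR-144 was not above background on any array. The sums of the other lists overlapped between the groups. For cardiomyocyte miRNAs they were 37271 to 39905 in sham and 34968 to 45654 in paced animals, and for fibroblast miRNAs 22785 to 24932 and 21113 to 26154. For endothelial miRNAs (2 probes of miR-126) they were 8345 to 9986 and 8110 to 9397. Of these 2, miR-126-5p reached the unadjusted threshold with a higher value in paced animals, but it was on no array well above background. For leukocyte miRNAs the sums were 1249 to 1542 and 1260 to 1619, and 3 of the 5 probes were on no array well above background. The part of any cell type in the result for miR-542-5p was not tested.

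The 3p arm of the same hairpin, miR-542-3p, did not separate the groups. Its log2 values were 7.49, 7.33 and 7.63 in sham and 6.93, 7.52 and 7.40 in paced animals, so that only paced replicate 1 lay below all sham animals. In limma it differed by -0.20 with an SE of 0.16 (adjusted p = 0.705), with a 95% interval from -0.59 to 0.19. It was -0.02 without paced replicate 1 and -0.32 without paced replicate 2, with adjusted p values of 0.904 and 0.501, and 0.36 and 0.20 with the scaling on detected probes and without normalization. Whether the arms of miR-542 responded differently cannot be read from these arrays, since miR-542-5p was well above background in no paced animal and miR-542-3p in 1.

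**Figure D3:**
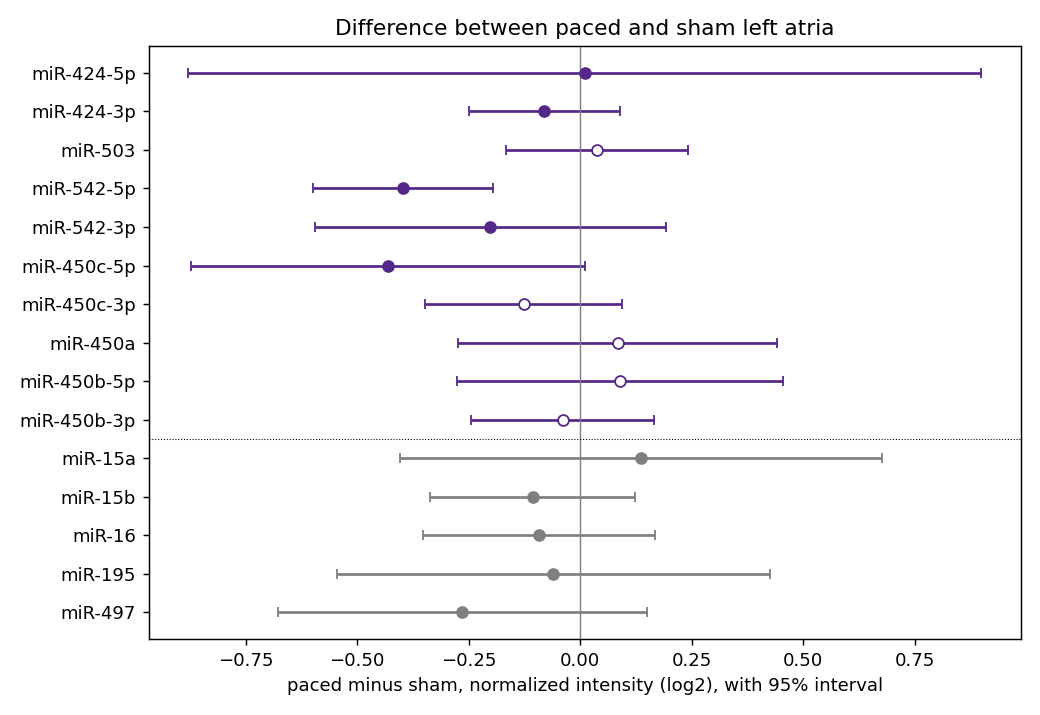
Difference between paced and sham animals in normalized intensity (log2, horizontal axis) with its 95% interval from limma, for the 10 cluster members (purple) and for the 5 other miRNAs of the miR-15/16 seed (grey, below the dotted line). Open points mark probes on no array well above background. Only the interval of miR-542-5p leaves out 0, before adjustment for the number of probes.

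Among the miR-450 members, miR-450c-5p was the only one well above background on any array when set against all empty spots. Its median scanner signal was 511, 216 and 406 units in sham and 411, 502 and 390.0 units in paced animals. The log2 values were 8.37, 8.26 and 8.69 in sham and 7.75, 8.38 and 7.91 in paced animals. The groups overlapped through paced replicate 2, which lay above 2 of the sham animals.
With 8.44 ± 0.22 as the sham mean and 8.01 ± 0.33 as the paced mean (SD, n = 3), limma gave -0.43 with an SE of 0.19, a 95% interval from -0.87 to 0.01 and an adjusted p of 0.470. It was negative under all 18 alternatives, from -0.82 with the empty-spot median subtracted to -0.13 with the arrays scaled on their detected probes, with the adjusted p between 0.152 and 0.979. Alternatives that changed only the test, its prior, the block or the probes kept left the difference at -0.43, so their sign was fixed beforehand. The difference of miR-450c-5p was -0.61 without paced replicate 2 (SE 0.14, adjusted p = 0.152), -0.30 without paced replicate 1 (adjusted p = 0.364) and -0.31 without sham replicate 3 (adjusted p = 0.707).
miR-450a, with the same seed, had log2 values of 6.73, 6.77 and 6.87 in sham and 6.53, 7.11 and 6.98 in paced animals, which overlapped and differed by 0.08 with an SE of 0.15 (limma, adjusted p = 0.867). These are values at the background, and no fold is given.
The other miR-450 arms were also at the background. The differences were 0.09 (SE 0.15) for miR-450b-5p, -0.04 (SE 0.09) for miR-450b-3p and -0.13 (SE 0.09) for miR-450c-3p, with adjusted p values from 0.668 to 0.885 in limma and overlap between the groups in each.

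The members were then compared in how they varied between animals. Among the paced arrays, paced replicate 1 was lowest for 7 of the 10 members, and among all probes for 30.7%. Paced replicate 2 was highest for 8 members, and among all probes for 29.5%. Both held for 6 members and for 19.9% of all probes. The 5 members on no array well above background supplied 3, 4 and 3 of these counts, and for them the order is one of values at the background. miR-503, miR-450c-3p and miR-542-5p were those in which paced replicate 1 was not the lowest.
The closest profile to that of miR-424-5p within the cluster was seen for 2 members at the background, miR-450b-5p and miR-450a. Over the 6 arrays Pearson's r with miR-424-5p was 0.947 for miR-450b-5p (Spearman's rho 0.829, exact permutation p = 0.0111 and 0.0583) and 0.945 for miR-450a (rho 0.829, exact permutation p = 0.00833 and 0.0583). Over the 45 pairs of members both Pearson values had an adjusted permutation p of 0.167. Without paced replicates 1 and 2, the arrays farthest from the median, r was 0.72 and 0.71 over 4 arrays, and with arrays scaled on their detected probes it was 0.40 and 0.44 over all 6. Of all probes that were on no array well above background (44.4% of the 322), 2 had an r of 0.9 or more with miR-424-5p, and these were miR-450a and miR-450b-5p themselves.
miR-450a and miR-450b-5p ranked the 6 arrays in the same order, with r = 0.995 (rho 1, exact permutation p = 0.00139 and 0.00278, adjusted p = 0.0625 over the 45 pairs). Without paced replicates 1 and 2 it was 0.992. Among all pairs of these dim probes, 0.0295% had an r at least as high, and the median r of these pairs was 0.09. The pair had the highest r of the 45 and is itself among the dim pairs, so this share is not a chance level. The spots of miR-450a and miR-450b-5p share columns and lie in rows 28 and 30 of the array, with miR-450b-3p between them in row 29. The r of miR-450b-3p with these 2 was 0.78 and 0.80. The part of position, of shared bases and of the background of an array in these correlations was not tested.
The highest r of miR-450c-5p was 0.877, with its own 3p arm at the background (rho 0.829, exact permutation p = 0.0319 and 0.0583, adjusted p = 0.2875 over the 45 pairs). Without paced replicates 1 and 3 it was 0.355. With miR-542-3p the r of miR-450c-5p was 0.854 (rho 0.943, exact permutation p = 0.0181 and 0.0167, adjusted p = 0.203). That r was 0.896 without paced replicates 1 and 3 but 0.379 with arrays scaled on their detected probes. With miR-450a the r of miR-450c-5p was 0.40 (rho 0.486, exact permutation p = 0.432 and 0.356). The r of miR-542-3p with miR-424-5p was 0.839 (rho 0.6, exact permutation p = 0.0694 and 0.242, adjusted p = 0.344). Without paced replicates 1 and 2 that r was 0.287. Whether the members fall into separate sets was not tested. These correlations share the arrays, their normalization and their groups.

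**Figure D4:**
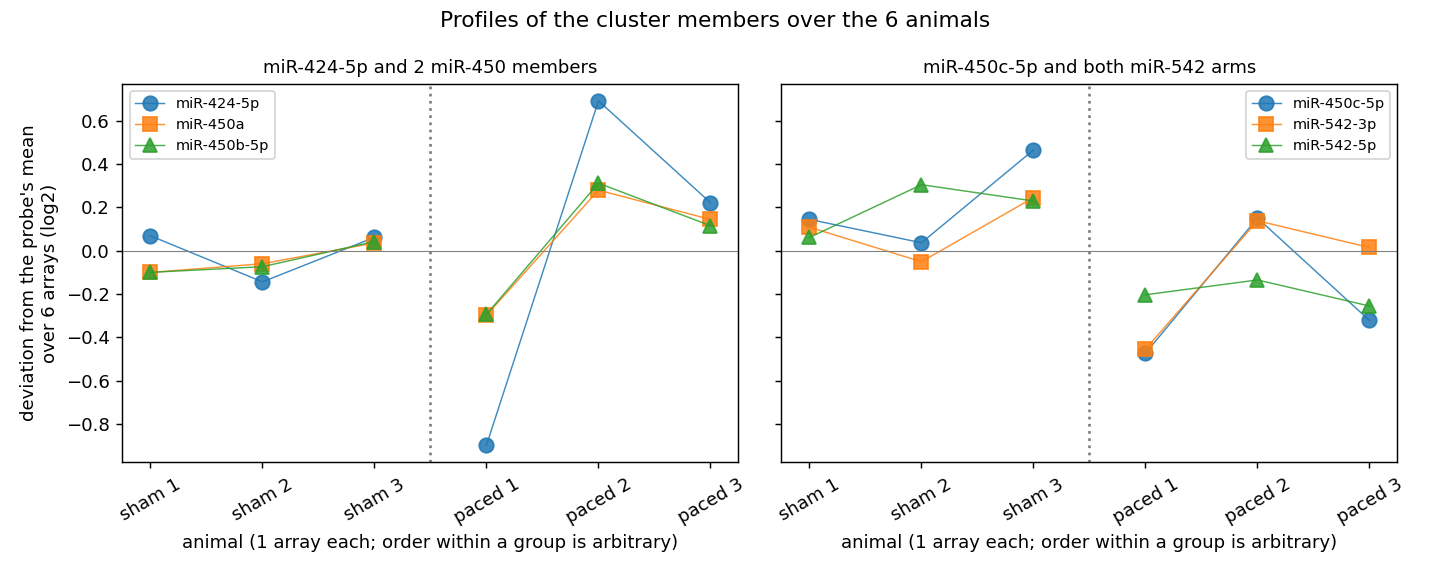
Deviation of each probe from its own mean over the 6 arrays (log2, vertical axis) in the 3 sham and 3 paced animals, whose order within a group is arbitrary. Left, miR-424-5p with miR-450a and miR-450b-5p, which are all lowest in paced replicate 1 and highest in paced replicate 2. Right, miR-450c-5p and miR-542-3p, which lie close together in paced replicates 1 and 2, and miR-542-5p, which is below its mean in all paced animals.

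Of the 5 miRNAs outside the cluster that share the seed of miR-424-5p, 4 were well above background on all 6 arrays, and miR-497 was so on 5. In limma 0 of the 5 reached the unadjusted threshold, and the adjusted p values ranged from 0.625 to 0.922. The differences were 0.14 for miR-15a, -0.11 for miR-15b, -0.09 for miR-16, -0.06 for miR-195 and -0.26 for miR-497, with a median of -0.09. For miR-15a the log2 values were 11.07, 10.80 and 10.73 in sham and 10.48, 11.35 and 11.17 in paced animals. As for miR-424-5p, paced replicate 1 was the lowest and paced replicate 2 the highest of the 6 animals. Among the paced animals alone this order held for 3 of the 5 miRNAs. It did not hold for miR-16, at 13.03, 12.81 and 12.75 in paced replicates 1, 2 and 3, or for miR-15b, at 10.51, 10.45 and 10.57. miR-195 had paced replicate 1 lowest as well, at 9.62, against 10.35 and 10.34 in paced replicates 2 and 3 and 10.07 to 10.31 in sham animals.
Of the 10 probes of muscle miRNAs (miR-1, miR-133a, miR-133b, miR-206, miR-208b, miR-378, miR-486 and miR-499), 1 reached the unadjusted threshold, miR-486, at -0.70 with an SE of 0.16 (adjusted p = 0.134 in limma). It is the same probe that was counted in the erythroid list. The median difference of the muscle list was 0.00, midway between miR-133a-3p (0.0041) and miR-133b (-0.0041). These were the brightest probes, and after quantile normalization their values mirrored each other on every array. This median therefore does not show that the list was unchanged. The 10 probes ran from -0.70 to 0.37, with 5 lower and 5 higher in paced animals. The cardiomyocyte miRNAs among them marked the tissue as labelled, with 4 of 6 probes well above background on all arrays, and all 5 fibroblast probes (miR-199a, miR-199b and miR-214) were so too, while miR-122 of liver and miR-205 of epithelium were not above background on any array.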

How the data were processed

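Total RNA from the LA of 3 paced and 3 sham pigs was hybridized by a service provider to 1-colour pig miRNA arrays, 1 animal per array. The authors deposited the median intensity of each of 3968 spots on a linear scale and without background subtraction (2898 spots of 322 pig miRNA probes, 1070 controls, 786 of them empty), and a table of processed intensity per probe. The processing of that table is not given in the sources used here, and it was used only as an alternative. Groups and replicate numbers came from the labels, which name no culture, litter or scan batch. With 1 animal per array, the spread behind the p values is that of these animals and their arrays together.

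All spots were corrected with normexp (limma 3.58.1, R 4.3.3, offset 50). Pig miRNA spots were transformed to log2, quantile-normalized and averaged over repeat spots. Groups were compared with lmFit and eBayes over all 322 probes without a block, with Benjamini-Hochberg adjustment. Where a group had no array well above background, a fold was given only if its bound (the brighter group's mean over that of the dimmer group, each dim array taken at its own value or, if higher, at its lowest value well above background) exceeded 1. The number of arrays limits precision.

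All members are described. The rule also named every miR-15/16 seed miRNA and the probes most like a member well above background on all arrays, which no member was. Members and lists were chosen with earlier results of these data known. In 20 simulated sets of 322 probes, 30 bright ones were changed by 1 log2 unit (SD 0.15 between animals). The paced and sham comparison recovered 99.5% of these at an adjusted threshold of 0.05, with 1.88% of the unchanged probes called. The share of false calls among the probes called was larger, since most probes were unchanged. The mean estimated change was 0.838. The changed probes were brighter than most members, and the SD of miR-424-5p in paced animals was 0.82, so this recovery does not carry over to them. Alternatives changed the background correction, normalization, values, filter, spot summary, test, pairing or animals. Correlations between members were added after seeing the data, as were 2 within-array contrasts of members, not reported since one or both probes were near background. Figures used Python 3.11.15 and matplotlib 3.10.9.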

Additional observations from a re-analysis of the deposited data

How the results depend on the processing

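The difference of miR-542-5p kept its sign under 16 of 17 alternatives and its adjusted p stayed between 0.0745 and 0.971. Alternatives that changed only the test, its prior or the block left this difference at -0.40, so their sign was fixed beforehand. Of the 10 members, 6 were past the unadjusted threshold with arrays scaled on their detected probes, all 6 with higher values and past the adjusted threshold, with 181 of the 322 probes and 4 muscle miRNAs. Of these 6, miR-424-3p was dim and the others were on no array well above background. This scaling shifted the median of all probes to 0.44, and turned miR-424-3p, miR-450b-3p, miR-450c-3p, miR-542-3p and miR-542-5p to 0.49, 0.51, 0.47, 0.36 and 0.15. Without normalization (median 0.27) the counts were 0 members, 15 probes and 0 muscle miRNAs, and miR-424-3p, miR-424-5p, miR-450b-3p, miR-450c-3p, miR-542-3p and miR-15a were at 0.33, -0.023, 0.35, 0.31, 0.20 and -0.16. With the empty-spot median subtracted and a floor of 32 the probe count was 20, and miR-424-3p, miR-424-5p and miR-450c-3p were at 0.040, -0.065 and 0.021. miR-503 and miR-450b-3p then gave no value, their arrays being at the floor. miR-450c-5p joined miR-542-5p past the unadjusted threshold, for 2 members, with an offset of 10, where miR-424-5p was at -0.0048, and with an intensity trend and robust prior. Cyclic loess gave 2 muscle miRNAs. With dim probes left out (39.1% of the probes kept, 2 of them members), 0 members and 5 probes reached the threshold. The cause of these changes was not tested.

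With 1 animal left out, 1 to 4 members, 18 to 67 probes, 0 to 1 of the seed family and 1 to 3 muscle miRNAs reached the unadjusted threshold. Without paced replicate 1 it was 4 members, miR-424-5p, miR-450a and miR-450b-5p higher and miR-542-5p lower, and 67 probes, of which 9 passed the adjusted threshold, 1 of them a muscle miRNA. Without paced replicate 2 it was 3 members, miR-542-5p, miR-450c-5p and miR-450c-3p, all lower, with 1 probe past the adjusted threshold. Without sham replicate 2 or paced replicate 3 it was 18 or 19 probes. The muscle count was 2 without sham replicate 1 and 3 without paced replicate 1, and the seed family count was 1 without sham replicate 3 or paced replicate 1. Signs turned within these ranges for miR-424-5p (-0.33 to 0.46), miR-450a (-0.035 to 0.25), miR-450b-3p (-0.11 to 0.027), miR-450b-5p (-0.045 to 0.26), miR-503 (-0.041 to 0.080), miR-15a (-0.037 to 0.40) and miR-195 (-0.18 to 0.18). Between deviations of animals with the same replicate number the correlations were 0.17, -0.01 and 0.21. The paced animals most like sham replicates 1, 2 and 3 were paced replicates 1, 3 and 3. These values do not settle whether the numbers pair the animals. With the replicate number as a block the count was 1 member, miR-542-5p (adjusted p = 0.246), and no member changed its side of the threshold.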

Other observations

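Likeness to probes outside the cluster was computed for 3 members chosen after their values were seen, over the 6 arrays and the 104 probes well above background on all of them, as a description. The profiles closest to that of miR-424-5p were those of miR-30a-5p (r = 0.979), miR-29c (r = 0.965) and miR-499-5p (r = 0.930), and 5.77% of these probes had an r of 0.9 or more. For miR-450c-5p they were miR-30e-5p (r = 0.877), miR-148b-3p (r = 0.805) and miR-133a-5p (r = 0.790), and for miR-542-5p miR-128 (r = 0.880), miR-143-3p (r = 0.825) and miR-133a-5p (r = 0.807). The points share arrays and normalization.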
